A study of Homo sapiens with 6 samples.

Results

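This account follows 10 genes that are known to be induced by both glucocorticoids and androgens through a shared steroid response element: TSC22D3, TSC22D1, ZBTB16, SGK1, CRISPLD2, BCL6, CEBPB, CEBPD, TFCP2L1 and FAM107A. They were taken by name, with earlier results of these data known. Every probe set that the platform annotation assigned to 1 of these genes alone was kept. That gave 33 probe sets of 49193 on the array, and the 10 genes are part of 18129 genes tested. RNA came from UMUC3-c31, which carries the name of UMUC3, a human bladder carcinoma line. The origin of the c31 derivative is not stated in the labels. Both groups were held for 24 h in charcoal-stripped serum, from which steroids have been removed, and 3 arrays followed 24 h with ethanol vehicle and 3 arrays 24 h with 10 nM R1881. R1881 is a synthetic androgen that binds the androgen receptor tightly and can also bind other steroid receptors. The design text calls the 3 samples of each group biological replicates.

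The receptors for androgens, glucocorticoids, mineralocorticoids and progestins form 1 branch of the nuclear receptor family and bind the same DNA element. It is an inverted repeat of the hexamer AGAACA around a short spacer. A gene with an accessible element of this kind can therefore respond to more than 1 steroid, depending on which receptor a cell makes. The 10 genes differ in what they encode. TSC22D3, also called GILZ, and TSC22D1 are leucine zipper proteins. ZBTB16 (PLZF) and BCL6 are zinc finger repressors with a BTB domain, CEBPB and CEBPD are C/EBP transcription factors and TFCP2L1 is a grainyhead-like transcription factor. SGK1 is a kinase that regulates ion channels and transporters, CRISPLD2 is a secreted glycoprotein, and FAM107A is an actin-binding protein.

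The promoter windows in RefSeq's GRCh38.p14 annotation were searched on both strands, since the genes are grouped by a DNA element. Each window runs from 250 bases before to 50 bases after an annotated start. Of the 10 genes 8 had windows, 21 in all because several genes have more than 1 start; no windows were listed for ZBTB16 and CEBPD. The hexamer AGAACA occurred in 4 of the 21 windows, 1 each of TSC22D1, SGK1, BCL6 and FAM107A, and in 14.8% of all 35116 windows. With GGTACA allowed as a second form, 5 windows matched, against 19.2% of all. The full palindrome, AGAACA on both strands with 3 bases between, was in 0 of the 21 and in 0.00285% of all windows. A relaxed palindrome, GNACANNNTGTNC, was tried after the windows had been seen. It was in 2 windows, both of FAM107A, and in 0.39% of all. These are matches of letters only, and response elements can lie far outside such windows.

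The stretches below show the gene that rose most, whose window held none of these motifs, and the 3 genes with matches before a start. Capitals mark both hexamers, on either strand, and the relaxed palindrome, and all run 5′ to 3′ on the gene's strand in GRCh38.p14. CRISPLD2 is shown at chr16:84819735-84819984 (plus strand), TSC22D3 at chrX:107717113-107717262 (minus strand) and TSC22D1 at chr13:44474392-44474491 (minus strand). For FAM107A, start 2 is shown at chr3:58587165-58587264 and start 3 at chr3:58577542-58577641 (both minus strand). In the first of these the hexamer, read on the other strand, overlaps the end of the relaxed palindrome.
CRISPLD2: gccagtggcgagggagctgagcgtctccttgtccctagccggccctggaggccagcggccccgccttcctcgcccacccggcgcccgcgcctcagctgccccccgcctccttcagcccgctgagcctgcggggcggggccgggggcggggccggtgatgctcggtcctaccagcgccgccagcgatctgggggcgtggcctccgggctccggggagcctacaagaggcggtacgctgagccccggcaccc
TSC22D3: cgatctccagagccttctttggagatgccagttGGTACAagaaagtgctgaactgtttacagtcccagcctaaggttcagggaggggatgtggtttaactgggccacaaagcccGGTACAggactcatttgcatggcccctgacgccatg
TSC22D1: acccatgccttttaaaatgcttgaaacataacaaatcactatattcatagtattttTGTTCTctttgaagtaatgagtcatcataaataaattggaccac
FAM107A, start 2: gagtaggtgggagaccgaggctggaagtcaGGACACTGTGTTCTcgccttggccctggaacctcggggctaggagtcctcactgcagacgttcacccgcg
FAM107A, start 3: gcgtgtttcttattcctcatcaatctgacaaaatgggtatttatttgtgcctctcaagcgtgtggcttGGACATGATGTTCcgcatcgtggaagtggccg

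The CRISPLD2 stretch had a GC content of 77.6%, whereas the TSC22D1 stretch had 29.0%. The TSC22D3 stretch, from 1 of the gene's 4 windows, held GGTACA in 2 places, starting 167 and 86 bases before that start, and no AGAACA. The TSC22D1 match, in 1 of the gene's 5 windows, began 94 bases before a start. The other windows of these genes held none of the motifs. In SGK1 and BCL6 the single match lay after the start, and their windows are not shown.

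Of the 10 genes 2 rose with R1881, CRISPLD2 and TSC22D3, and none fell. Each gene was represented here by its brightest probe set and tested with limma across all 18129 genes, with Benjamini-Hochberg adjustment and a threshold of 0.05. By that rule 1.6% of all genes were higher and 0.816% lower. The group's name rests on reports from other cells, and 8 of its 10 genes did not pass in these. The members were chosen with earlier results of these data known, so the shares here describe them and are no independent test. The median change of the 10 genes was 0.21 on the log2 scale, against 0 for all genes, and 7 of the 10 were higher by sign. The 10 include ZBTB16, TFCP2L1 and FAM107A, which lay below the background level described next in both groups. The 3 R1881 arrays lay above the 3 vehicle arrays in 5 of the 10, where 8.53% of all genes did so. These were CRISPLD2, TSC22D3, CEBPB, CEBPD and BCL6. No member lay wholly below, where 9.93% of all genes did. A change in the amount of RNA per cell and a change in the share of cells that make it cannot be told apart in such bulk samples.

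The arrays give no detection calls, so the background level was estimated from 423 olfactory receptor and keratin-associated protein genes, which these cells are not expected to use. It was set at the 90th percentile of those genes, 4.99 on the log2 scale. Above it in 1 group or both lay 7 of the 10 genes. ZBTB16, TFCP2L1 and FAM107A lay below it in both, so their arrays' values are given without a difference. The same holds for other genes below background in both groups. CEBPD was above it only with R1881, so the filter itself favours it. Levels are log2 values from the RMA method throughout, and a level on 1 probe set cannot be set against the level on another, since probes differ in affinity.

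The marker lists were mixed. Of 15 measured markers of epithelium and urothelium 6 lay above background in a group: KRT18, KRT8 and KRT7, at 10.7, 7.91 and 5.43 with vehicle, and close to background UPK1A (5.03), FOXA1 (5.01, with vehicle alone) and GATA3 (5.02, with R1881 alone). The other 9 lay below it in both groups, among them EPCAM, CDH1, UPK2 and UPK3A. KRT18 fell to 10.4 with R1881 and KRT7 rose from 5.43 to 5.83, a call that was lost in 5 of the 6 fits without 1 array. Their part in the results below was not tested. Of 11 mesenchymal and fibroblast markers 5 lay above background, VIM, FN1, CDH2, ACTA2 and PDGFRB, at 14.1, 9.04, 8.34, 7.36 and 5.15 with vehicle. The other 6 (COL1A1, COL1A2, COL3A1, DCN, LUM and PDGFRA) lay below it in both groups, and FN1 alone of the 11 was called (9.77 with R1881). Among 11 leukocyte and endothelial markers none was called (2 at an unadjusted limma p under 0.05) and 3 lay above background in a group. CD68, a lysosomal protein abundant in macrophages, read 8.93 with vehicle and 8.69 with R1881, a difference of -0.24 (limma, adjusted p = 0.328), VWF read 5.07 and 5.13, and CD3E read 5.02 with R1881. The other 8, among them PTPRC, lay below background in both groups. The mean over the list was 4.43 to 4.49 on the vehicle arrays and 4.41 to 4.47 on the R1881 arrays. Vehicle replicate 1 scored 11.04 on the second principal component (19.6% of the variance) and the other vehicle arrays -8.21 and -6.99. R1881 replicates 1 to 3 scored 5.69, -0.67 and -0.87, so replicate 1 was highest in both groups. Values without vehicle replicate 1 are given where they matter.

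**Figure D1:**
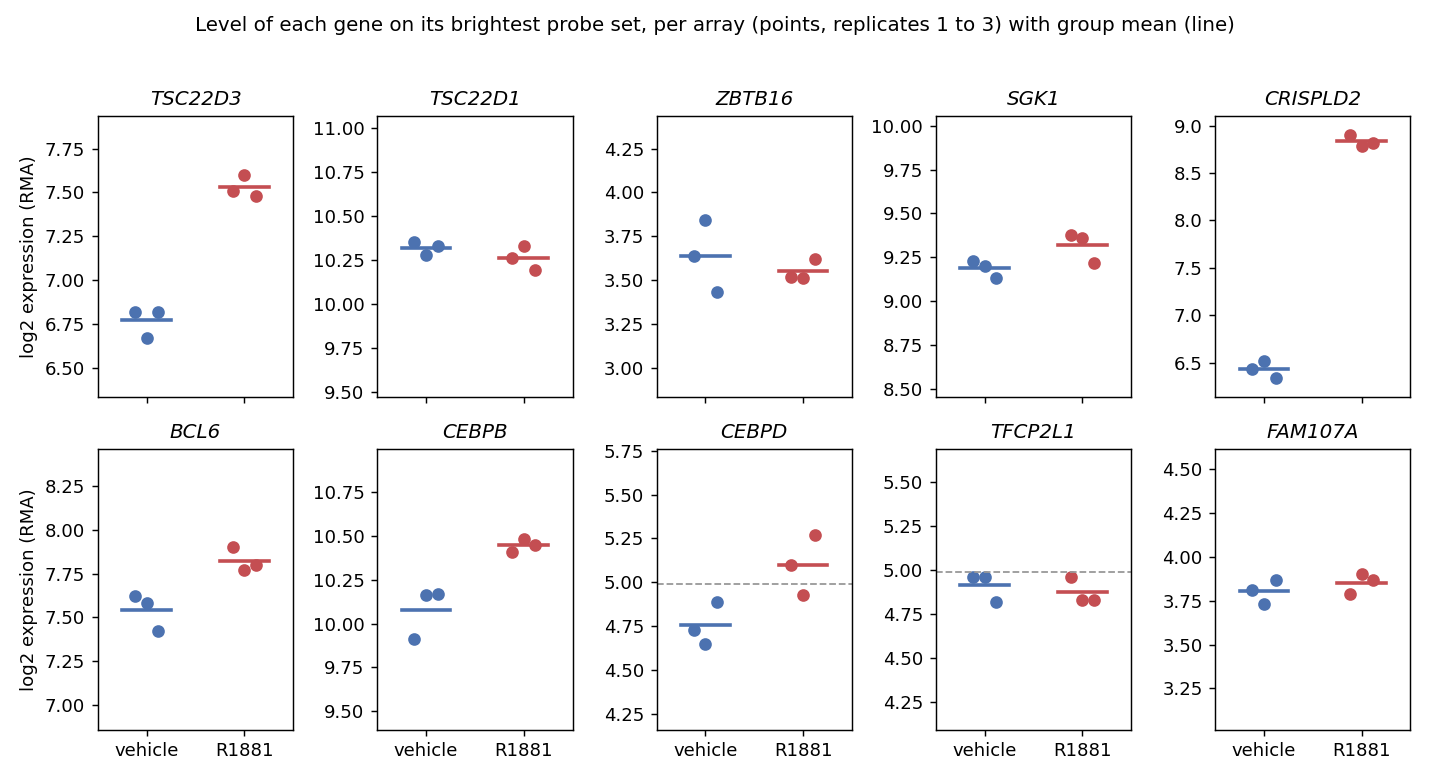
Level of each of the 10 genes on its brightest probe set (y axis, log2 RMA value, own range in each panel) in the vehicle and R1881 arrays; points are the 3 arrays of a group and lines their means, and the dashed line is the background level of 4.99 where it falls in the panel. CRISPLD2 and TSC22D3 show the widest gaps, and BCL6, CEBPB and CEBPD show smaller gaps without overlap.

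CRISPLD2, a secreted glycoprotein with a cysteine-rich secretory protein domain, changed most. Its brightest probe set (11723030_at) read 6.43, 6.52 and 6.34 in the vehicle arrays and 8.90, 8.79 and 8.82 in the R1881 arrays. The R1881 arrays all lay more than 2 units above the vehicle arrays, and each group spread by less than 0.2. The change was 2.41 ± 0.06 (SE, n = 3 per group), or 5.30-fold with a 95% confidence interval of 4.80 to 5.85. It ranked 4 of 18129 genes by size of rise (limma, adjusted p = 1.50e-05). The exact permutation test (two-sided) was at p = 0.10 here and for every probe set below whose groups did not overlap; 3 against 3 arrays can give no smaller p.

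The 5 CRISPLD2 probe sets did not move alike. The set 11758338_s_at went from 5.11, 4.96 and 5.01 to 5.72, 5.55 and 6.07, a change of 0.75 ± 0.13 (SE). It was called when all 49193 probe sets were tested together (limma, adjusted p = 0.0395). R1881 replicate 3 was the highest of the 3 there. The call was lost without any 1 array other than R1881 replicate 3 (adjusted p of 0.0504 to 0.177).

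The other CRISPLD2 sets changed little. 11723031_a_at went from 5.42 to 5.66 without overlap (0.23 ± 0.06, adjusted p = 0.181 by limma). 11762326_at and 11759999_at each differed by 0.03, less than the spread of their arrays, and all 3 of these sets lay within 1 unit of the background level. Within arrays, the brightest set stood 0.77 ± 0.07 (SD) above 11762326_at with vehicle and 3.15 ± 0.08 (SD) above it with R1881 (exact permutation test, p = 0.10). This comparison was chosen after the values were seen. With the mean of all 5 sets the gene's change was 0.69, still called.

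TSC22D3 encodes GILZ, a leucine zipper protein known for its part in the anti-inflammatory action of glucocorticoids. On its brightest set (11717829_s_at) it read 6.82, 6.67 and 6.82 with vehicle and 7.51, 7.60 and 7.48 with R1881. Every R1881 array was higher by at least 0.66. The change was 0.76 ± 0.06 (SE, n = 3 per group), or 1.69-fold with a 95% confidence interval of 1.53 to 1.87 (limma, adjusted p = 0.00130). It ranked 64 by size of rise and was called in each of the 6 fits without 1 array (adjusted p of 0.00705 to 0.0139).

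The other TSC22D3 probe sets pointed the same way. 11751415_a_at read 5.94, 5.96 and 5.83 with vehicle and 6.64, 6.56 and 6.55 with R1881, a change of 0.67 ± 0.06 (SE) that was called among all probe sets (limma, adjusted p = 0.00200). 11717830_a_at read 6.21, 6.21 and 6.02 against 6.54, 6.49 and 6.32, a change of 0.30 ± 0.08 (SE) that was not (adjusted p = 0.176). The groups did not overlap on any of the 3. An s or x before "_at" marks a set whose probes may also match transcripts of other genes. Where such sets were avoided, the gene was represented by the brighter remaining set, 11717830_a_at, and lost its call, with 0.30 and an adjusted p of 0.153. The set 11751415_a_at, called above, is also outside these classes.

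TSC22D1, a relative of TSC22D3 first known as a gene stimulated by TGF-beta, did not pass the test on its brightest set. That set (11715413_s_at) read 10.35, 10.28 and 10.33 with vehicle and 10.26, 10.33 and 10.19 with R1881, and the groups overlapped. The difference was -0.06 ± 0.05 (SE), with a 95% confidence interval for the ratio of 0.881 to 1.04 (limma, adjusted p = 0.637). The set 11758446_s_at was likewise close to even, at 0.03 ± 0.07.

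The dimmest TSC22D1 set behaved otherwise. 11715606_a_at read 5.73, 5.65 and 5.72 with vehicle and 5.96, 5.96 and 6.01 with R1881, so that all R1881 arrays were higher. The change of 0.28 ± 0.05 (SE) was called among all probe sets (limma, adjusted p = 0.0471) and lost its call in each fit without 1 array (adjusted p of 0.0991 to 0.162). The distance of this set from the brightest one narrowed from -4.62 ± 0.01 (SD) to -4.28 ± 0.10 (SD) with R1881 (exact permutation test, p = 0.10), a comparison chosen after the values were seen. The sign for the gene thus depended on the probe set. Where s and x sets were avoided it was 0.28 (limma, adjusted p = 0.0341), and with the mean of the 3 sets 0.08 (limma, adjusted p = 0.411).

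The C/EBP factors share a basic leucine zipper and take part in inflammatory and metabolic gene control. CEBPB has 1 probe set (11743077_s_at), which read 9.91, 10.16 and 10.17 with vehicle and 10.41, 10.48 and 10.45 with R1881. The groups did not overlap, and vehicle replicate 1 was the lowest array. The difference was 0.37 ± 0.08 (SE), or a ratio of 1.29 with a 95% confidence interval of 1.14 to 1.46, and it did not pass (limma, adjusted p = 0.0690). Without vehicle replicate 1 it was 0.28 with an adjusted p of 0.0554. CEBPB passed with a trended, robust prior (adjusted p = 0.00980) and when dim genes were left out of the fit (adjusted p = 0.0290).

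CEBPD lay at the background level. Its brightest set (11752869_s_at) read 4.73, 4.65 and 4.89 with vehicle and 5.10, 4.93 and 5.27 with R1881. The R1881 arrays were all higher, but the lowest of them exceeded the highest vehicle array by no more than 0.04. The difference was 0.34 ± 0.10 (SE) and did not pass (limma, adjusted p = 0.177). The R1881 mean stood 1.08-fold above the background level, which is no measure of a rise from vehicle. It lay below the level of 5.98 that the 95th percentile would give. The other 4 CEBPD sets lay below background in both groups, and none of them was called.

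BCL6, a repressor best known from germinal centre B cells, was higher by a small amount on the 4 of its 5 probe sets above background. The other, 11759322_at, lay below background in both groups, overlapped and was not called. The brightest (11720746_s_at) read 7.62, 7.58 and 7.42 with vehicle and 7.90, 7.77 and 7.80 with R1881, without overlap. The difference was 0.28 ± 0.07 (SE), or a ratio of 1.22 with a 95% confidence interval of 1.09 to 1.36, and did not pass at the level of genes (limma, adjusted p = 0.103).

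On 11739841_a_at BCL6 read 5.67, 5.67 and 5.66 with vehicle and 5.89, 6.01 and 5.96 with R1881. The vehicle arrays were nearly equal there, and the change of 0.29 ± 0.05 (SE) was called among all probe sets (limma, adjusted p = 0.0471). It lost this call in each fit without 1 array (adjusted p of 0.0797 to 0.177). On 11720745_a_at the difference was 0.31 ± 0.06 (SE, adjusted p = 0.0841). On 11750749_a_at it was 0.24 ± 0.09 (limma, adjusted p = 0.353), and the groups overlapped. With the mean of the 5 sets BCL6 stood at 0.25 and passed (limma, adjusted p = 0.0335), as it did with a trended, robust prior (adjusted p = 0.0352) and without dim genes (adjusted p = 0.0439).

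ZBTB16, the PLZF repressor and a frequent marker of glucocorticoid and androgen action in other tissues, gave no signal above background. Its only probe set (11729371_a_at) read 3.64, 3.84 and 3.43 with vehicle and 3.52, 3.51 and 3.62 with R1881. The groups overlapped, and vehicle replicates 2 and 3 spanned all R1881 arrays. It did not pass (limma, adjusted p = 0.732). Neither group reached the background level, so small changes would be missed at this signal.

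SGK1 is the kinase that carries much of the effect of aldosterone on sodium transport. It was well expressed, and all 4 of its sets were higher with R1881 by a small amount that did not pass. Its brightest set (11737750_s_at) read 9.23, 9.20 and 9.13 with vehicle and 9.38, 9.36 and 9.22 with R1881. R1881 replicate 3 lay within the range of the vehicle arrays. The difference of 0.13 ± 0.06 (SE) did not pass (limma, adjusted p = 0.369), and the 95% confidence interval of the ratio was 0.996 to 1.21.

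The other 3 SGK1 sets differed by 0.18, 0.14 and 0.11, all higher by sign and none called. The groups were apart on 1 of the 4, 11733698_s_at, which read 8.97, 9.12 and 9.02 with vehicle and 9.24, 9.24 and 9.18 with R1881 (0.18 ± 0.06, limma adjusted p = 0.242).

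TFCP2L1, a transcription factor of kidney collecting duct and pluripotent cells, lay just below background. Its brightest set (11730310_at) read 4.96, 4.96 and 4.82 with vehicle and 4.96, 4.83 and 4.83 with R1881, with overlapping groups. It did not pass (limma, adjusted p = 0.804). On its dimmest set, 11730311_at, the groups were apart by a small amount, 3.10, 3.05 and 2.86 against 3.18, 3.11 and 3.12. That set was not called.

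FAM107A, whose windows held the relaxed palindromes shown above, was below background on all 3 of its sets. The brightest (11748726_s_at) read 3.81, 3.73 and 3.87 with vehicle and 3.79, 3.90 and 3.87 with R1881, and the groups overlapped. It did not pass (limma, adjusted p = 0.717). On 11721032_s_at the arrays read 3.66, 3.56 and 3.69 against 4.02, 3.91 and 3.83 without overlap and was not called (limma, adjusted p = 0.124).

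**Figure D2:**
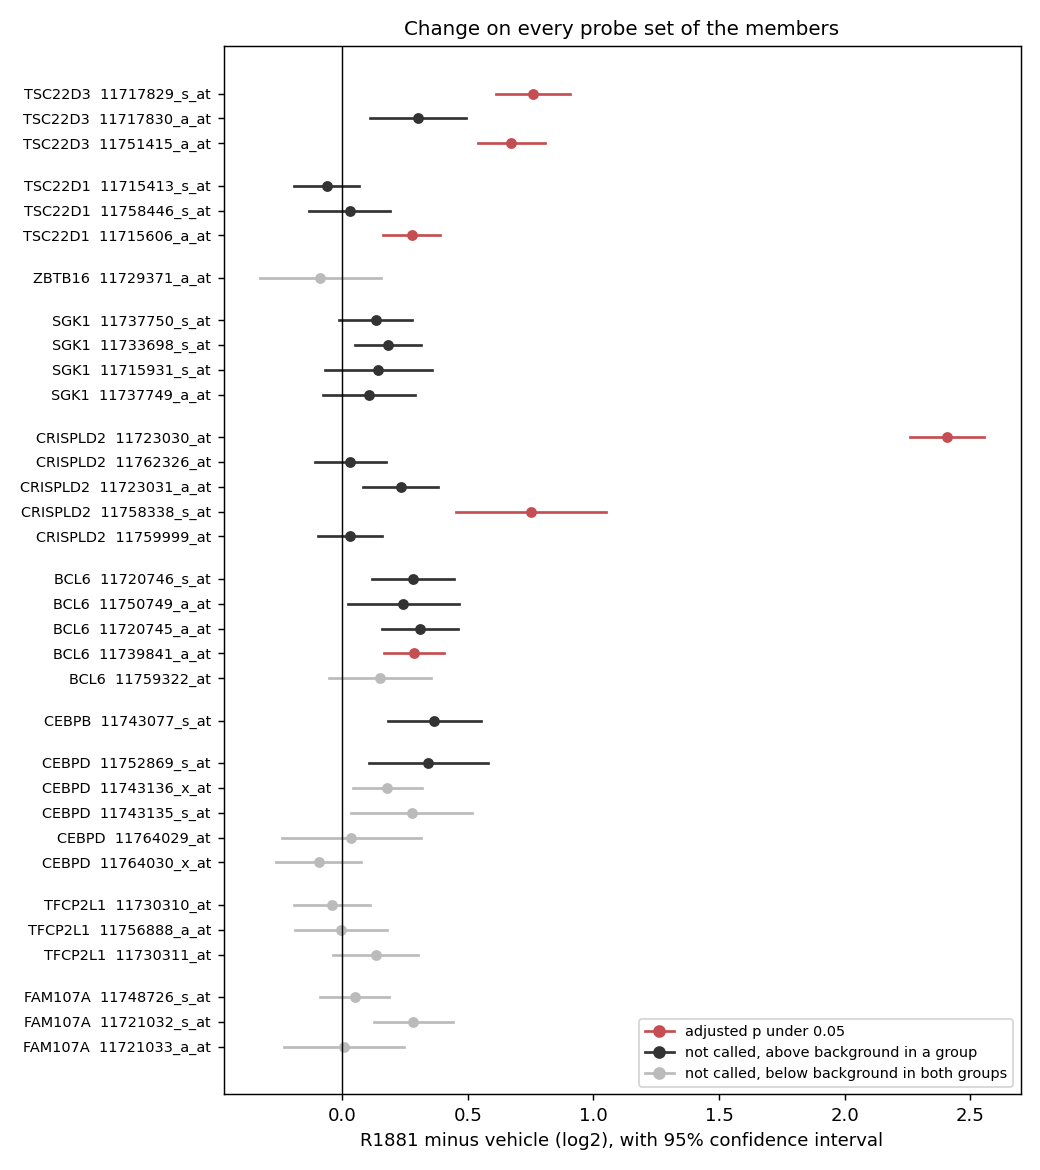
Change of each of the 33 probe sets (x axis, R1881 minus vehicle in log2 units) as a point with its 95% confidence interval; red marks sets called among all probe sets, black sets not called but above background in a group, and grey sets below background in both, whose differences are no measure of a transcript. Called sets belong to TSC22D3, CRISPLD2, TSC22D1 and BCL6, and 11723030_at of CRISPLD2 stands alone at 2.41.

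Counted over probe sets, 6 of the 33 rose and none fell, 2 each of CRISPLD2 and TSC22D3 and 1 each of TSC22D1 and BCL6. Over all 49193 probe sets 1.12% were called higher and 0.427% lower. The R1881 arrays lay wholly above the vehicle arrays on 16 of the 33, where 7.72% of all sets did so, and wholly below on none, where 9.08% did. By sign 28 of the 33 were higher, and the median was 0.18. The share by sign and the median over all probe sets were not taken. Above background in a group lay 21 of the 33. The counts by overlap and by sign and the median also take in the others. Differences of those sets are no measure of a transcript. Sets of 1 gene read transcripts of that gene on the same arrays, though not always alike, so these counts are not independent. In the fits without 1 array 3 or 4 of the 33 sets were called: 4 without R1881 replicate 3 and 3 without each of the others.

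**Figure D3:**
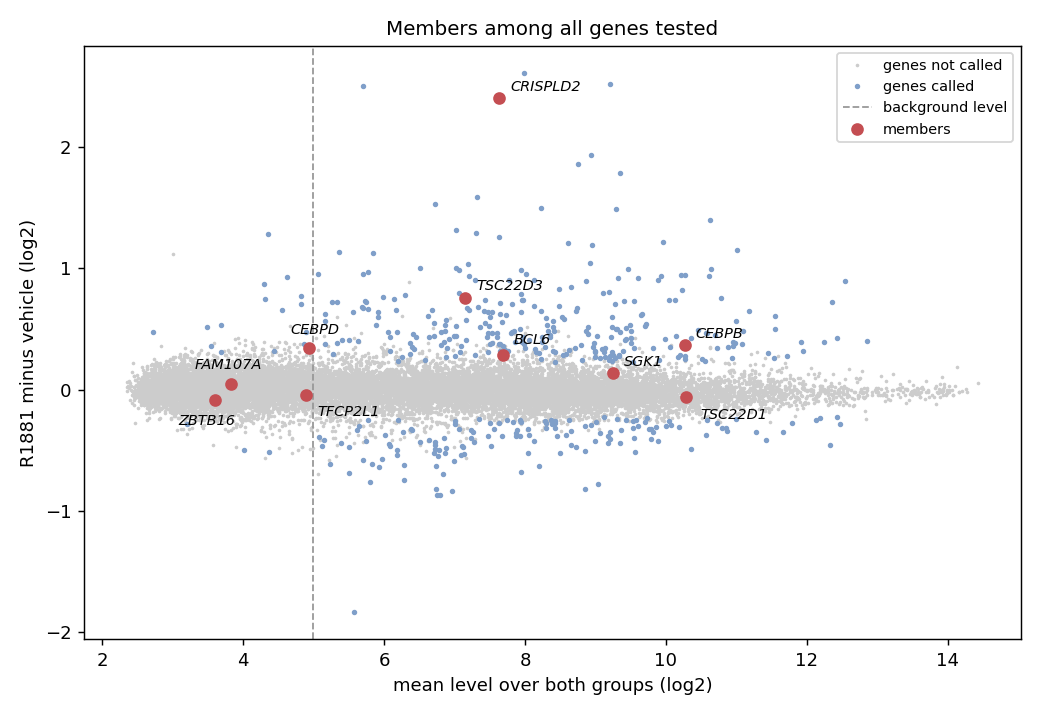
Change with R1881 (y axis, log2) against the mean level over both groups (x axis, log2) for the 18129 genes tested, with called genes in blue, the 10 members in red and the background level as a dashed line. CRISPLD2 lies near the top, TSC22D3 among the called genes, and ZBTB16, FAM107A and TFCP2L1 lie within the cloud of dim genes.

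The other genes of the steroid response were taken from a list of 25 that are widely reported as induced by glucocorticoids, several also by androgens. Of its 24 measured genes 10 rose and none fell, and 14 did not pass. Over all genes 1.6% were called higher. The median was 0.17, beside 0.21 for the 10 members and 0 for all genes. Like the members, the list was chosen with earlier results of these data known, so these figures are no independent test. The gene with the smallest p was ANGPTL4, an inhibitor of lipoprotein lipase, at 2.52 ± 0.07 (SE), close to CRISPLD2 in size. FKBP5, a cochaperone of steroid receptors, changed by 1.49 ± 0.05. TNFAIP3, a brake on NF-kB signalling, changed by 1.32 ± 0.06 and the MAP kinase phosphatase gene DUSP1 by 0.74 ± 0.04, the latter close to TSC22D3. Of the 24 genes 15 lay above background in a group. With 1 array left out 7 to 10 of the 24 were called.

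Of 11 measured genes known mainly as androgen targets in prostate cells none passed, with a median of 0.09. At an unadjusted limma p under 0.05 there were 2, where 14.3% of all genes lay. PMEPA1, a regulator of TGF-beta signalling, stood at 0.19 ± 0.07 (SE; not called). The kallikrein gene KLK4 lay below background at 4.56 with vehicle and 4.70 with R1881 and did not pass (limma, adjusted p = 0.346). With the mean of all probe sets of a gene KLK4 passed (adjusted p = 0.0474), so that 1 of the 11 was called. Of the 11 genes 6 lay above background in a group.

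Among 5 measured steroid receptor genes 1 was called. NR3C1, the glucocorticoid receptor gene, was bright at 10.39 ± 0.05 (SD) with vehicle and 10.64 ± 0.04 (SD) with R1881, a change of 0.25 ± 0.05 (SE; limma, adjusted p = 0.0462) that was lost in each fit without 1 array (adjusted p of 0.111 to 0.148). NR3C2 and PGR, the mineralocorticoid and progesterone receptor genes, lay below background at 2.94 and 2.87 with vehicle. The estrogen receptor genes ESR1 and ESR2 lay close above background at 5.20 and 5.18 and differed by 0.06 and -0.03. The androgen receptor gene was not analysed here.

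The relatives and partners of the members gave no calls. Of 15 measured paralogs, among them the other TSC22, SGK, C/EBP and grainyhead-like genes, none passed and the median was -0.01. At an unadjusted limma p under 0.05 there were 3, where 14.3% of all genes lay. TSC22D4 stood highest at 0.27 ± 0.10 (SE; limma, adjusted p = 0.266) and GRHL1 lowest at -0.20 ± 0.08 (adjusted p = 0.288). Of 9 measured partners, corepressors of BCL6 and ZBTB16 and regulators and substrates of SGK1, none passed, with a median of -0.01, and 1 had an unadjusted limma p under 0.05, beside the same 14.3%. NEDD4L, a ubiquitin ligase that SGK1 phosphorylates, had the smallest p at -0.16 ± 0.05 (limma, adjusted p = 0.179).

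Of the genes downstream of the transcription factors among the members, 1 was called higher in each of 2 short lists, where 1.6% of all genes were called higher. Of 10 acute-phase and inflammatory genes with C/EBP sites 1 rose, the neutrophil chemokine gene CXCL8, from 8.66 ± 0.13 to 9.12 ± 0.04 (SD), a change of 0.46 ± 0.07 (SE; limma, adjusted p = 0.0189). CXCL8 lost its call in 5 of the 6 fits that left out 1 array (adjusted p of 0.0174 to 0.0976 over the 6). SAA1 and SAA2, serum amyloid genes of near-identical sequence, lay below background and were not called. SAA1 read 2.44 with vehicle and 3.56 with R1881 (limma, adjusted p = 0.0744), and it passed with a trended, robust prior (adjusted p = 0.0159) and without R1881 replicate 3 (adjusted p = 0.00225). Only 2 of the 10 lay above background in a group. Of 7 measured genes reported as repressed by BCL6 in B cells 1 was called and rose, the cell cycle inhibitor gene CDKN1A, at 0.42 ± 0.05 (SE; limma, adjusted p = 0.00492). The median of the 7 was -0.02.

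**Figure D4:**
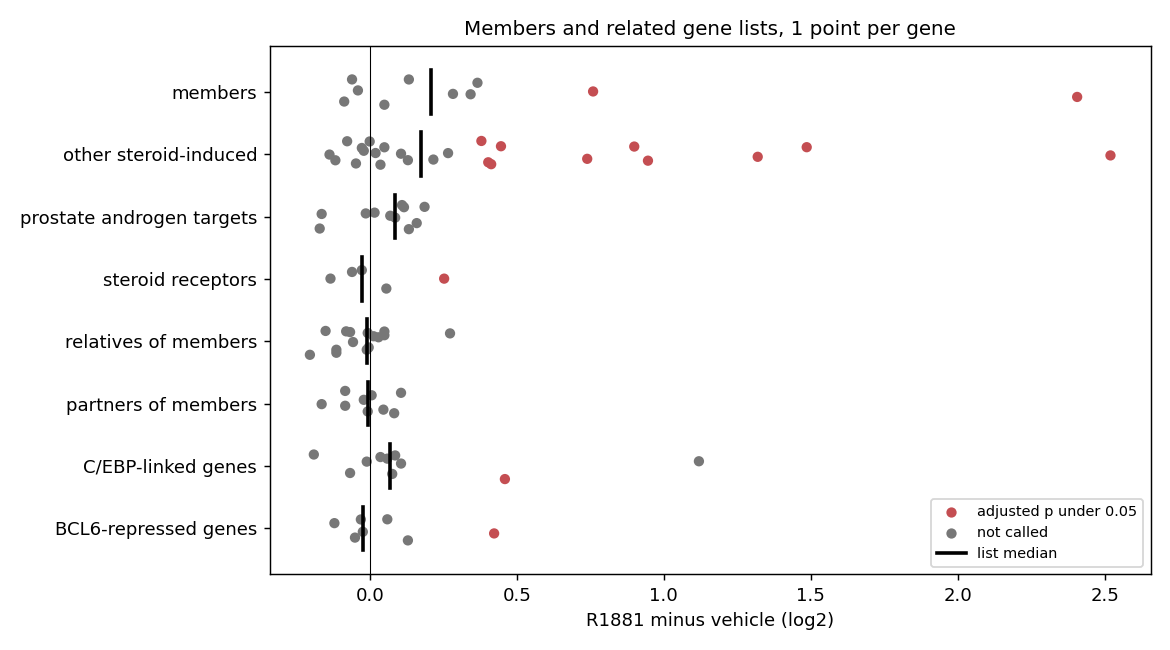
Change with R1881 (x axis, log2) of each gene in the members and the related lists, with 1 point per gene, red where called, and the list median as a black line; vertical scatter within a row carries no meaning. Called genes number 2 among the members and 10 among the other steroid-induced genes, and none among the relatives and partners, whose medians are -0.01.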

How the data were processed

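Gene expression was measured on 6 Affymetrix arrays, 3 with vehicle and 3 with R1881. The deposited log2 values, 1 per probe set and array, are the authors' RMA output, as the submitters' processing notes name it; neither the version nor a filter is stated there. RMA equalises the distribution between arrays, so a shift of the whole transcriptome would be removed. Array medians were 5.49 to 5.51.

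Probe sets were named from the platform annotation; all 10 members matched RefSeq by Entrez identifier. Genes with several probe sets were represented by the set with the highest mean. R1881 was compared with vehicle by lmFit and eBayes in limma 3.58.1 (R 4.3.3), two-sided, with Benjamini-Hochberg adjustment over 18129 genes, and separately over 49193 probe sets. SE and intervals come from the moderated fit; SD is over arrays. No filter was used. The fit was tested on simulated data. Precision is limited by 3 arrays per group.

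The members and lists were chosen with earlier results of these data known. Named genes are all members, all steroid receptors and up to 4 genes of smallest p of each other list; marker genes named for identity were chosen after their values were seen.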

Additional observations from a re-analysis of the deposited data

How the results depend on the processing

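CRISPLD2 and TSC22D3 were the 2 members called at the level of genes, also in all 6 fits without 1 array. BCL6 and CEBPB made it 4 when dim genes were left out and with a trended, robust prior, and where s and x sets were avoided the 2 were CRISPLD2 and TSC22D1. Over all genes 438 were called, but 757 without dim genes, 895 with a trended, robust prior and 209 to 270 without 1 array. Of the 33 probe sets 6 were called, and 3 to 4 without 1 array. The labels do not say that equal replicate numbers pair arrays; their deviations correlated at 0.09, 0.06 and 0.03, and each array correlated best with its own number. With the replicate block 222 genes and 3 of the 33 probe sets were called, and the same 2 members. The palindrome was in 0 of the 21 windows, and in 2 when relaxed.

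Signs turned for values that stood near 0 with all 6 arrays and the settings above. Those of ZBTB16, TFCP2L1, PGR and NR3C2 are differences between signals below background. TSC22D1 stood at 0.082 with the mean of its sets. Where s and x sets were avoided, another set, 11715606_a_at, represented it, with a called rise of 0.277 (limma, adjusted p = 0.0341). TFCP2L1 stood at 0.030 with the mean of its sets. Without 1 array ZBTB16 ranged from -0.190 to 0.015, the set 11758446_s_at of TSC22D1 from -0.022 to 0.093 and the set 11762326_at of CRISPLD2 from -0.0017 to 0.083. Among the receptors the leave-out range was -0.053 to 0.127 for ESR1, -0.060 to 0.0050 for ESR2 and -0.218 to 0.167 for PGR. ESR1 stood at -0.012 with the mean of its sets, ESR2 at 0.00017 with array weights and NR3C2 at 0.060 where s and x sets were avoided. The causes were not tested. Signal over background limits ZBTB16, TFCP2L1, FAM107A and CEBPD; at the 95th percentile of the proxy genes the background level would be 5.98 and 6 members would lie above it.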
